A study of Mus musculus with 16 samples.

Results

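The 10 genes described here encode heat shock proteins and chaperones, the proteins that help other proteins fold or keep them from clumping. They were picked by symbol from a table of 54838 gene identifiers, each symbol matched 1 identifier, and all 10 were among the 14510 genes that passed the filter on low counts. By their usual classes, 7 are heat-inducible cytosolic genes (Hspa1a, Hspa1b, Dnajb1, Hsph1, Hsp90aa1, Hspb1 and Bag3), 1 is constitutive (Hspa8) and 2 are mitochondrial (Hspd1 and Hspe1). RNA was sequenced from the spleens of C57BL/6 mice in 8 size-selected samples and 8 whole spleen samples, to find the genes enriched in spleen glia. Both groups came from the same 8 numbers, 4 male and 4 female, with 1 sample of each group per number. The size-selected samples, whose source is labelled as spleen glia, are the cells left on a strainer after mincing, enzymatic digestion and lysis of red blood cells. One protocol is attached to all 16 samples, and how whole spleen was prepared is not described separately. No allele, treatment or age is given in the sources used here, nor whether a number stands for 1 mouse, so p-values measure the spread between these samples.

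Heat shock proteins of the Hsp70 family bind exposed stretches of unfolded proteins and release them in a cycle driven by ATP, with J-domain proteins such as Dnajb1 starting the cycle and nucleotide exchange factors such as Hsph1 and Bag3 ending it. The transcription factor Hsf1 is held inactive in unstressed cells, and on heat or other damage to proteins it binds heat shock elements, runs of alternating GAA and TTC blocks, in the promoters of the inducible genes. Constitutive members such as Hspa8 do the same folding work in unstressed cells, and Hspd1 with Hspe1 forms the folding chamber of the mitochondrial matrix.

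Totals ran from 13119992 to 19944440 estimated counts in the size-selected samples and from 12153770 to 16282454 in whole spleen. In the size-selected columns, the values of 3898 genes were 2-decimal numbers multiplied by constants between 0.659 and 0.964, and no constant was found in the whole spleen columns. Of the 10 chaperone genes, 7 carried such a constant (Dnajb1, Hsph1, Hsp90aa1, Hspb1, Hspa8, Hspd1 and Hspe1). Results are therefore given for the values as deposited and, at least where a call changes or a called value moves by over 1.5 times, for restored counts with the constants divided out. Of the 8 glial markers, 7 could be tested and all 7 were higher in the size-selected samples, with a summed level of 70.3 to 539 counts per 1000000 counts (CPM) against 1.80 to 6.28 in whole spleen. The 8th, Sox10, was at 0.53 to 6.58 CPM against at most 0.408. S100b, Fabp7, Cdh19, Gfra3 and Scn7a, with medians of 0 to 0.034 CPM in whole spleen, passed the count filter only through the size-selected samples. That all 7 were higher is thus partly set by the filter. The same holds for some markers of the lists that follow, such as Pdgfra and Pdgfrb of fibroblasts. Markers of fibroblasts (7 of 7 higher, summed level 1061 to 3664 against 5.02 to 57.6 CPM), smooth muscle (5 of 5, 765 to 3638 against 8.36 to 69.2) and endothelium (6 of 6, 542 to 1438 against 76.8 to 178) were also higher in the size-selected samples. Macrophage markers (4 of 5 higher, 2745 to 6239 against 1182 to 2282 CPM) and megakaryocyte markers (5 of 5 higher, 87.8 to 597 against 50.8 to 184) were higher too. B cell markers were lower (5 of 5) but still summed to 824 to 3109 CPM, against 5072 to 6369. Markers of T cells (4 of 5 lower, with Cd4 higher when the number was a block, 132 to 299 against 342 to 556 CPM), neutrophils (5 of 5 lower, 79.2 to 689 against 461 to 1614) and erythroid cells (1 of 5 lower, 4 with the number as a block, 6.31 to 102 against 12.1 to 210) were lower by those counts. The summed levels of the megakaryocyte, neutrophil and erythroid lists overlapped between the groups. Of all genes tested between the groups, 37.5% were called higher and 30.4% lower. No marker of these lists was at 0 in all samples. The part of these markers in the results below was not tested.

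Promoters of 8 of the 10 genes were found in the RefSeq table of promoters (GRCm38.p6), and Hspa8 and Hsp90aa1 were not matched. The 250 bases before each start site were searched for the paired blocks GAANNTTC and TTCNNGAA, each of which reads the same on both strands, and for 3 blocks in a row, a longer run on either strand in which a pair is followed, after 2 free bases, by a further block, so that it contains both pairs. A pair was found in 14.5% of all 27025 genes in the table and 3 blocks in a row in 0.514%. Pairs were found in Hspa1a, Hspa1b, Hspb1, Hsph1, Hspd1 and Hspe1, and none of these letters in the windows of Dnajb1 and Bag3. The stretches from 150 to 31 bases before the start are shown for the 3 genes with the largest rises, with the matching blocks in capitals: Hspa1a (minus strand of chr17:34972187-34972306), Hspa1b (minus strand of chr17:34959269-34959388) and Hspb1 (plus strand of chr5:135887769-135887888).
Hspa1a: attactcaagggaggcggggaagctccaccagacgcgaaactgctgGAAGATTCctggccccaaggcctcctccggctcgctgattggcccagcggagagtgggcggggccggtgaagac
Hspa1b: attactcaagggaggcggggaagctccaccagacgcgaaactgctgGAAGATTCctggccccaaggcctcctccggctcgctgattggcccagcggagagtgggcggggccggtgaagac
Hspb1: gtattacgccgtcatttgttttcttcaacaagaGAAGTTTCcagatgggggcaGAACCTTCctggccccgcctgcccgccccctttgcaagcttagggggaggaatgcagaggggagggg
None of the bases in these 3 windows is annotated as exonic in GENCODE M21. The Hspa1a and Hspa1b stretches have the same letters, and their full windows of 250 bases differ at 3 bases. For contrast, these are 30 bases around the matches of genes that did not rise, Hsph1 (minus strand of chr5:149636351-149636380) and a stretch of chr1:55088053-55088082 (plus strand). The Hsph1 match lies within the 40 bases before the more upstream of its 2 RefSeq start sites that GENCODE M21 annotates as exonic. The stretch on chromosome 1 lies between RefSeq start sites of Hspe1 (55088148) and Hspd1 (55087932), in the windows of both, and inside the Hspd1 gene as GENCODE M21 bounds it, where all 250 bases of these windows are annotated as exonic. RefSeq gives a further start site of Hspd1 at 55088243, the end of the GENCODE gene, whose window holds no pair.
Hsph1: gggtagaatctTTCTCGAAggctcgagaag
Hspe1 and Hspd1: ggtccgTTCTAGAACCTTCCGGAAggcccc
The unbroken run in the window of Hspe1 and that of the Hspd1 site at 55087932 holds 3 overlapping pairs, and these were the 2 genes of the 8 with 3 blocks in a row. A match is a description of letters and shows no binding.

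Of the 10 genes, 5 were higher in the size-selected samples (Hspa1a, Hspa1b, Hspb1, Bag3 and Dnajb1), 3 were lower (Hsp90aa1, Hspd1 and Hspe1) and 2 passed the test in neither direction (Hsph1 and Hspa8), at an adjusted p under 0.05. Among all 14510 genes tested, 37.5% were called higher and 30.4% lower (67.9% in all), with a median log2 fold change of 0.05, so a call by itself was common in this comparison. In restored counts 6 genes were higher, with Hspa8 added, and 3 lower, against 37.6% and 30.4% of all genes (68% in all). The values of the 2 groups did not overlap for 7 of the 10 genes, against 34.9% of all genes, and for 9 of 10 in restored counts, against 34.8%. In 8 of the 10 genes every number moved in 1 direction, as did 53.6% of all genes. In tissue samples such as these, a change in the number of cells of a type and a change of RNA per cell cannot be told apart.

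**Figure D1:**
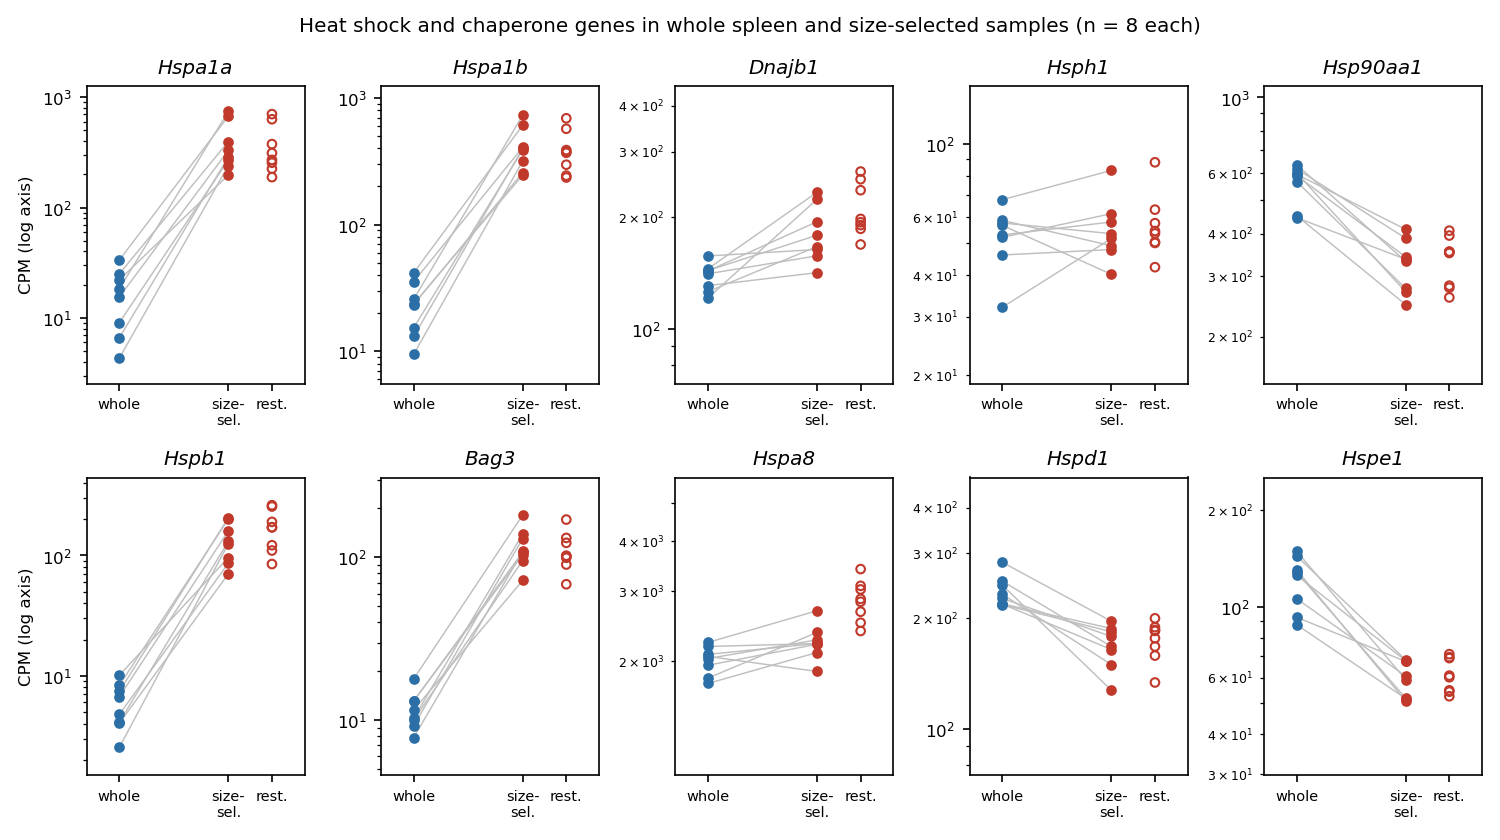
CPM of the 10 genes on log axes, 1 point a sample, in whole spleen (blue) and size-selected samples (red, filled, as deposited), with grey lines joining samples of 1 number and open points showing restored counts of the size-selected samples. Hspa1a, Hspa1b, Hspb1 and Bag3 are far apart between the groups in every number, while Hsp90aa1, Hspd1 and Hspe1 lie lower in every size-selected sample.

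Hspa1a and Hspa1b, the stress-inducible Hsp70 genes, rose furthest together with Hspb1. Hspa1a (ENSMUSG00000091971, chr17:34969190-34972156, minus strand, GRCm38) stood at 197 CPM in the lowest size-selected sample, 308 at the median and 743 in the highest, and at 4.33, 16.9 and 33.5 CPM in whole spleen. Every size-selected sample was above every whole spleen sample, and the lowest of them was still several times the highest whole spleen value. The means were 391.9 ± 204.6 CPM and 16.8 ± 9.99 CPM (SD, n = 8 each), and Hspa1a rose by 4.55 ± 0.42 on the log2 scale (SE, adjusted p = 2.2e-08), which is 23.4-fold. Larger rises than that of Hspa1a were found in 6.39% of all genes tested, than that of Hspa1b in 7.64%, of Hspb1 in 6.61% and of Bag3 in 10.6%.

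Hspa1b (ENSMUSG00000090877, chr17:34956436-34959238, minus strand) lies next to Hspa1a and encodes nearly the same protein. Its size-selected values were 246 CPM at the lowest, 395 at the median and 730 at the highest, and its whole spleen values 9.48, 23.6 and 41.7 CPM. Again the groups did not overlap. Hspa1b rose by 4.16 ± 0.32 on the log2 scale (SE, adjusted p = 2.3e-09), 17.9-fold. The open reading frames of the Hspa1a and Hspa1b transcripts differ at 10 of 1929 aligned bases (99.5% identity), and 60.3% of the 50-base stretches of Hspa1a also occur in another gene, so the division of reads between this pair is uncertain. Summed into 1 feature, they rose by 4.33 ± 0.36 (SE, adjusted p = 5.9e-09). Per 100 counts of Hspa1b there were 69.1 to 128 of Hspa1a in the size-selected samples and 45.7 to 93.2 in whole spleen, ranges that overlap.

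Hspb1 (ENSMUSG00000004951, chr5:135887919-135889563, plus strand) encodes Hsp25, a small heat shock protein that holds unfolding proteins without using ATP. It had 70.2, 128 and 206 CPM at the lowest, median and highest of the size-selected samples and 2.54, 5.73 and 10.1 CPM in whole spleen. No whole spleen sample came near the size-selected range. Hspb1 rose 22.5-fold, by 4.49 ± 0.30 on the log2 scale (SE, adjusted p = 5.0e-10). Hspb1 carried constants in the size-selected columns, and in restored counts it rose by 4.86 ± 0.30 (SE, adjusted p = 2.8e-10), 29.1-fold. A processed pseudogene, Hsp25-ps1, shares 51.6% of its 50-base stretches and averaged 67.0 estimated counts in size-selected samples and 1.59 in whole spleen, so some reads may be divided between them.

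Bag3 (ENSMUSG00000030847, chr7:128523616-128546981, plus strand) binds Hsp70 and small heat shock proteins and passes damaged clients to autophagy. In the size-selected samples it ran from 72.3 to 182 CPM with a median of 108, and in whole spleen from 7.83 to 17.95 with a median of 10.9. Its groups were apart as well. Bag3 rose by 3.34 ± 0.19 on the log2 scale (SE, adjusted p = 1.5e-10), 10.1-fold, and none of its 50-base stretches occurs in another gene.

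In the authors' deposited table of 2201 genes, whose lowest log2 fold change is 3.50, 3 of the 10 genes are listed. The authors' deposited table gives a log2 fold change of 4.56 for Hspa1a, 4.17 for Hspa1b and 4.52 for Hspb1.

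**Figure D2:**
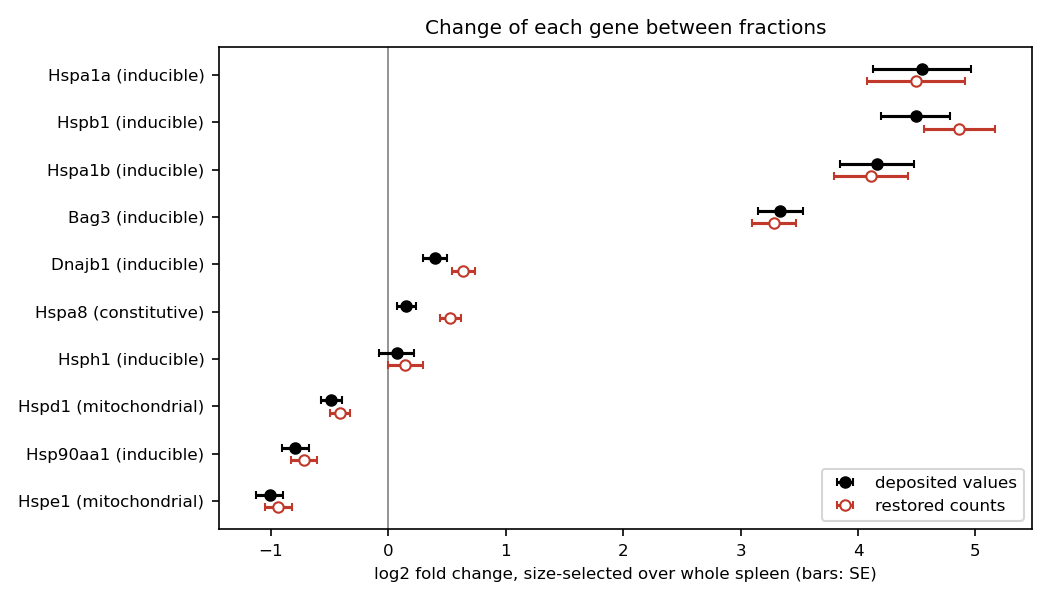
Log2 fold change of each gene, size-selected over whole spleen, with SE bars, for deposited values (black) and restored counts (open red). Hspa1a, Hspb1, Hspa1b and Bag3 lie between 3.28 and 4.86, the other 6 genes between -1.01 and 0.64, and Hspa8, Hspb1 and Dnajb1 are the genes that shift most between the deposited values and restored counts.

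The other 3 inducible genes did not follow the 4 above. Dnajb1 (ENSMUSG00000005483, chr8:83608193-83612653, plus strand), the J-domain protein Hsp40 that hands clients to Hsp70, had 142, 173 and 234 CPM at the lowest, median and highest of the size-selected samples and 121, 142 and 157 CPM in whole spleen. It was higher in 8 of 8 numbers, although the groups overlapped. The rise was 0.40 ± 0.10 (log2 scale, SE, adjusted p = 0.0020), 1.32-fold, and 0.64 ± 0.10 in restored counts (adjusted p = 1.4e-05), 1.56-fold, where the lowest size-selected sample (168.9 CPM) was above the whole spleen samples. With male numbers alone the call was lost (0.35, adjusted p = 0.086).

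Hsph1 (ENSMUSG00000029657, chr5:149614287-149636376, minus strand) encodes Hsp110, the exchange factor that resets Hsp70. It lay at 40.3, 52.6 and 83.0 CPM in the size-selected samples (lowest, median, highest) and at 32.1, 54.8 and 67.7 CPM in whole spleen. Its groups overlapped almost fully, and it was higher in 5 of 8 numbers. The difference was 0.07 ± 0.15 on the log2 scale (SE, adjusted p = 0.68), and 0.15 ± 0.15 in restored counts (adjusted p = 0.39).

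Hsp90aa1 (ENSMUSG00000021270, chr12:110690605-110702728, minus strand), the inducible cytosolic Hsp90, was the inducible gene that fell. It had 248, 334 and 412 CPM in the size-selected samples and 445, 594 and 636 CPM in whole spleen, again as lowest, median and highest. All 8 numbers were lower in the size-selected sample and the groups did not overlap. Hsp90aa1 fell by 0.79 on the log2 scale (SE 0.11, adjusted p = 6.9e-06), 1.73-fold, and fell by 0.72 in restored counts. Hsp90ab1, the constitutive Hsp90, fell by 0.58 (SE 0.10, adjusted p = 6.3e-05). Hsp90aa1 counts per 100 counts of Hsp90ab1 were 23.6 to 33.2 in the size-selected samples and 29.0 to 37.8 in whole spleen, so the ranges overlapped. Of the 50-base stretches of Hsp90aa1, 58.5% occur in other genes, mainly processed pseudogenes.

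Hspa8 (ENSMUSG00000015656, chr9:40800984-40810087, plus strand), the constitutive Hsp70 called Hsc70, was the most abundant of the 10 genes in both groups. Its values were 1883 CPM at the lowest, 2213 at the median and 2677 at the highest in the size-selected samples, against 1757, 2042 and 2228 CPM. As deposited, the groups overlapped, 7 of 8 numbers were higher, and the difference of 0.16 ± 0.08 did not pass the test (log2 scale, SE, adjusted p = 0.11). In restored counts Hspa8 ran from 2380 to 3407 CPM in the size-selected samples, above every whole spleen sample, and rose by 0.53 ± 0.09 (SE, adjusted p = 3.4e-05) in 8 of 8 numbers. The call for Hspa8 thus rests on whether the constants are divided out. In addition, 73.2% of its 50-base stretches occur in other genes, mainly processed pseudogenes.

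Both mitochondrial genes fell. Hspd1 (ENSMUSG00000025980, chr1:55077835-55088243, minus strand), the Hsp60 subunit of the folding chamber, had 128, 173 and 196 CPM at the lowest, median and highest of the size-selected samples and 218, 229 and 284 CPM in whole spleen. Its groups did not overlap, and it fell by 0.48 (log2 scale, SE 0.09, adjusted p = 0.00013), and by 0.41 in restored counts. Hspe1 (ENSMUSG00000073676, chr1:55088132-55091307, plus strand), the Hsp10 lid of that chamber, had 50.8, 60.1 and 68.3 CPM against 87.9, 127 and 149 CPM. Hspe1 was likewise lower in all 8 numbers with no overlap, and fell by 1.01 (SE 0.12, adjusted p = 4.3e-07), 2.01-fold, or by 0.94 in restored counts. Hspe1 counts per 100 counts of Hspd1 were 28.5 to 41.5 in the size-selected samples and 35.7 to 68.3 in whole spleen, with medians of 34.6 and 51.8 and some overlap. The windows of Hspe1 and of 1 of the 2 RefSeq start sites of Hspd1 share the run shown above, and the genes' ends overlap on opposite strands, so reads in the overlap cannot be assigned where the counting does not use strand, which is not stated. Other genes share 44.8% of the 50-base stretches of Hspd1 and 36.1% of those of Hspe1.

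Levels of different genes can be set beside each other only per length, here the merged length of all annotated exons of a gene. It exceeds the longest coding transcript of Hsph1 (7266 against 3802 bases), Hspa8 (4301 against 2394) and Hspe1 (1474 against 774). Their values are lowered by this beside those of Hspa1a, Hspa1b and Bag3, where both lengths are the same. In whole spleen, the mean level in CPM per kb of exon was 467.5 for Hspa8, 143.3 for Hsp90aa1, 89.7 for Hspd1, 81.7 for Hspe1 and 43.3 for Dnajb1, with Hspa1b (8.38), Hsph1 (7.29), Hspb1 (5.82), Hspa1a (5.67) and Bag3 (4.55) far below. In the size-selected samples, Hspa8 still led with 520.6 CPM per kb, followed by Hspa1b at 149.8, Hspa1a at 132.1 and Hspb1 at 130.5. Hsp90aa1 stood at 82.8 CPM per kb there, Hspd1 at 64.1, Dnajb1 at 57.0, Bag3 at 45.9, Hspe1 at 40.6 and Hsph1 at 7.65. The 3 genes that followed Hspa8 differed from each other by less than their spread (SD 60.4, 68.9 and 49.4 CPM per kb, n = 8), so their order is not resolved, and Hsp90aa1 lay below Hspa1a and Hspb1 by less than the SD of either. Nor is that of neighbours among Hspd1, Dnajb1, Bag3 and Hspe1 in these samples (SD 5.18 to 13.0 CPM per kb), of Hspd1 and Hspe1 in whole spleen (SD 8.68 and 15.3), or of neighbours among the 5 lowest there (SD 1.22 to 3.93). In restored counts, Hspa8 led the size-selected samples with 661.2 CPM per kb, followed by Hspb1 (165.7), Hspa1b (141.4) and Hspa1a (124.7). Those 3 still differed by less than their SD (62.7, 56.8 and 64.9), but Hsp90aa1 (85.3) lay below Hspb1 by more than that. Dnajb1 (66.0) lay above Bag3 (43.4) by more than the SD of either. The authors' mean TPM, a level per length, was 329 for Hspb1, 192 for Hspa1b and 168 for Hspa1a in the size-selected samples. Hspa1a and Hspa1b together moved from 0.00386 ± 0.00205% of all counts in whole spleen to 0.0839 ± 0.0362% in the size-selected samples (SD, n = 8 each). All 10 genes together took 0.304 ± 0.0236% and 0.426 ± 0.0571%. Per 100 counts of Hspa8, the summed counts of Hspa1a and Hspa1b were 0.664, 1.94 and 3.70 in whole spleen and 20.1, 30.5 and 56.7 in the size-selected samples (lowest, median, highest). In restored counts the last 3 values were 15.9, 22.7 and 42.0, so the groups stayed apart.

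Among the size-selected samples, the SD was 52.2% of the mean for Hspa1a, 40.3% for Hspa1b, 37.9% for Hspb1 and 28.2% for Bag3, and it was smallest for Hspa8, at 10.1%. Number 436 was highest for 6 of the 10 genes, among them Hspa1a (743 CPM), Hspa1b (730) and Hspb1 (206), and also had the highest sums of fibroblast markers (3664 CPM) and glial markers (539). Its megakaryocyte sum was also the highest (597 CPM) and its erythroid sum the lowest (6.31). Number 427 came next for Hspa1a (673 CPM), Hspa1b (609) and Hspb1 (201), was highest for Bag3 (182), and was lowest for Hsp90aa1 (248), Hsph1 (40.3) and Hspd1 (128). It had the highest sums of smooth muscle (3638 CPM), endothelial (1438) and immediate early genes (11858) and the lowest of B cell (824) and T cell markers (132). Number 408 stood at the other end, lowest for Hspa1a (197 CPM), Hspa1b (246) and Hspb1 (70.2) and highest for Hsp90aa1 (412). Its sums were the lowest for fibroblast (1061 CPM), smooth muscle (765), endothelial (542) and macrophage markers (2745) and the highest for B cell markers (3109).

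In whole spleen, number 427 had the highest values of Hspa1a (33.5 CPM), Hspa1b (41.7) and Bag3 (17.95) and the highest sums of fibroblast (57.6 CPM) and smooth muscle markers (69.2). It also had the highest sums of glial (6.28 CPM), endothelial (178), macrophage (2282) and erythroid markers (210), and the lowest of B cell markers (5072). Number 445 had the lowest values of Hspa1a (4.33 CPM), Hspa1b (9.48), Hspb1 (2.54) and Bag3 (7.83) and the lowest fibroblast sum (5.02). Its sums of T cell markers (342 CPM) and immediate early genes (4578) were the lowest too. By contrast, its glial (3.71 CPM) and endothelial sums (102) ranked 3rd from the highest, and its smooth muscle sum (11.5) ranked 6th. In these numbers some marker sums were high or low beside the chaperone genes and others were not. The part of the marker sums in the difference between the groups was not tested. With each number left out in turn, the log2 fold change ran from 4.37 to 4.71 for Hspa1a, 4.02 to 4.28 for Hspa1b, 4.40 to 4.70 for Hspb1 and 3.27 to 3.41 for Bag3.

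**Figure D3:**
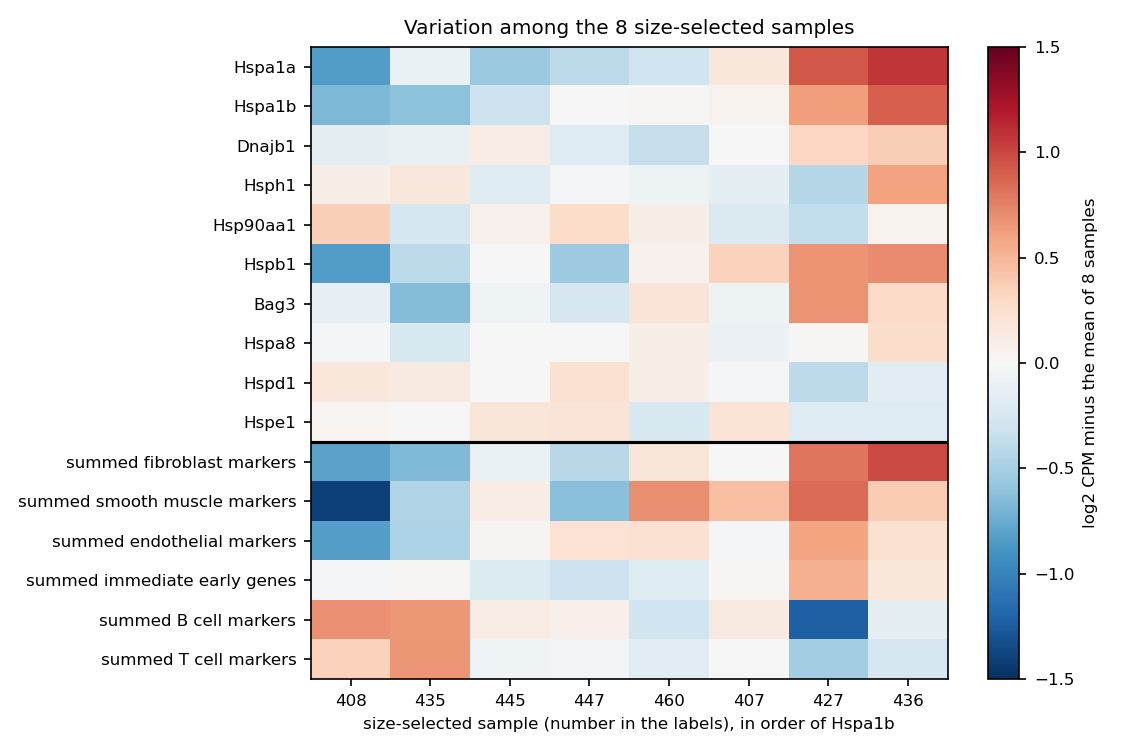
Log2 CPM of each gene, and of summed marker lists below the line, in the 8 size-selected samples, each minus its mean over the 8 and ordered by Hspa1b. Numbers 427 and 436 at the right are high for Hspa1a, Hspa1b, Hspb1 and fibroblast markers, and number 408 at the left is low for them and high for B cell markers.

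Other chaperones were read from 10 further lists with 86 genes, of which 82 were tested, 22 were higher and 36 lower, against 37.5% and 30.4% of all genes (23 and 30 in restored counts). The other small heat shock proteins were all higher where tested (5 of 5, median log2 fold change 5.95), namely Cryab, Hspb2, Hspb6, Hspb7 and Hspb8. Cryab, Hspb2, Hspb7 and Hspb8 would not have passed the count filter on their whole spleen values, and Hspb3 and Cryaa went untested. The count of 5 and the median are thus partly set by the filter and are no support for a rise of the class. Hspb6, at 1.65 CPM or more in whole spleen, did not depend on this. Cryab, alpha B-crystallin, averaged 54.5 ± 25.3 CPM in the size-selected samples and 0.888 ± 0.595 in whole spleen (SD, n = 8 each), and rose by 5.95 ± 0.38 on the log2 scale (SE, adjusted p = 3.7e-10). Hspb2, Hspb7 and Hspb8 each had at most 7 estimated counts in any whole spleen sample, so their fitted fold changes are imprecise and are not given singly, although they enter the median and the plot of chaperone classes. Of the other Hsp70 family, 5 of 7 tested were higher and 2 lower, with a median of 0.98. Of the 5, Hspa12a and Hspa12b would likewise not have passed the filter on their whole spleen values. The 7 included Hspa12a, an atypical member, which rose by 3.97 ± 0.32 (SE, adjusted p = 4.05e-09), and Hspa4, an exchange factor related to Hsph1, which fell by 0.47 (SE 0.12, adjusted p = 0.0016).

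Subunits of TRiC and prefoldin and the Hsp90 co-chaperones were mostly lower. All 8 subunits of the TRiC chaperonin, which folds actin and tubulin, fell (7 of 8 in restored counts), with a median log2 fold change of -0.53. Cct2 fell by 0.82 (SE 0.09, adjusted p = 1.4e-07), and Cct5, the subunit with the highest level per kb of exon, fell by 0.49 (SE 0.09, adjusted p = 5.8e-05). Of 6 prefoldin subunits, which deliver clients to TRiC, 5 fell, with a median of -0.74, and Pfdn5 fell by 1.04 (SE 0.11, adjusted p = 9.5e-08), or by 0.67 in restored counts. Of the 10 genes for Hsp90ab1 and Hsp90 co-chaperones, 8 fell (6 in restored counts) and 1 rose, with a median of -0.38. The gene that rose was Fkbp5, an immunophilin induced by glucocorticoids (1.29 ± 0.18, SE, adjusted p = 4.95e-06), and Tomm34, a co-chaperone of import into mitochondria, fell by 0.58 (SE 0.09, adjusted p = 1.0e-05). In restored counts Tomm34 fell by 0.34 (adjusted p = 0.0031), and Hsp90ab1 fell further, by 0.51 (adjusted p = 0.00018).

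J-domain proteins, Hsp70 co-factors and organelle chaperones were mixed. Among 8 other cytosolic J-domain genes, 2 rose and 3 fell (2 in restored counts). Dnajb4 rose by 1.60 ± 0.11 (SE, adjusted p = 5.8e-10), Dnajc7 fell by 0.75 (SE 0.09, adjusted p = 4.7e-07), and Dnaja1 did not pass the test (0.00 ± 0.08, SE, adjusted p = 0.97). In restored counts Dnajc7 fell by 0.38 (adjusted p = 0.00036), and Dnajb6 fell by 0.40 (adjusted p = 0.00038). Of 8 other Hsp70 co-factors, Bag2 rose and Hspbp1, an exchange factor, fell by 0.60 (SE 0.09, adjusted p = 8.8e-06), while Bag1 had a difference of -0.04 (SE 0.08, adjusted p = 0.67). Of 10 other mitochondrial chaperones and proteases, 2 rose and 5 fell (2 and 3 in restored counts), with a median of -0.19. Hspa9, the mitochondrial Hsp70, had a difference of -0.03 (SE 0.12, adjusted p = 0.81), beside the falls of Hspd1 and Hspe1. Clpb, a disaggregase, rose by 0.61 ± 0.13 (SE, adjusted p = 0.00031), or by 0.85 in restored counts, and Hscb, a J-domain protein of iron-sulfur cluster assembly, fell by 0.64 (SE 0.13, adjusted p = 0.00022).

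Of 17 chaperones of the endoplasmic reticulum, 6 rose and 4 fell (7 and 3 in restored counts), with a median of 0.11. Hspa5, the Hsp70 of that compartment known as BiP, had a difference of 0.11 ± 0.13 (SE, adjusted p = 0.46), and Manf, a secreted factor of the stress response of that compartment, fell by 0.65 (SE 0.10, adjusted p = 2.0e-05). Serpinh1, the collagen chaperone Hsp47, rose by 5.37 ± 0.30 (SE, adjusted p = 1.2e-10), beside the fibroblast marker sums given above. With all samples and deposited values, none of Hsf1, Hsf2 and Hsbp1, which binds Hsf1, was called by edgeR with the count filter or by DESeq2, which was run without it. An unadjusted p under 0.05 was given to 0 of them by edgeR and 1 by DESeq2. Hsf1 had a difference of -0.20 (SE 0.09, adjusted p = 0.072), and fell by 0.25 in restored counts (adjusted p = 0.028). In deposited values edgeR also called Hsf1 lower with no count filter (-0.25, adjusted p = 0.049), without number 408 (-0.26, adjusted p = 0.021) and without the whole spleen sample of number 427 (-0.23, adjusted p = 0.040). For Hsf2 the difference was -0.03 (SE 0.28, adjusted p = 0.93), and for Hsbp1 0.01 (SE 0.11, adjusted p = 0.96).

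**Figure D4:**
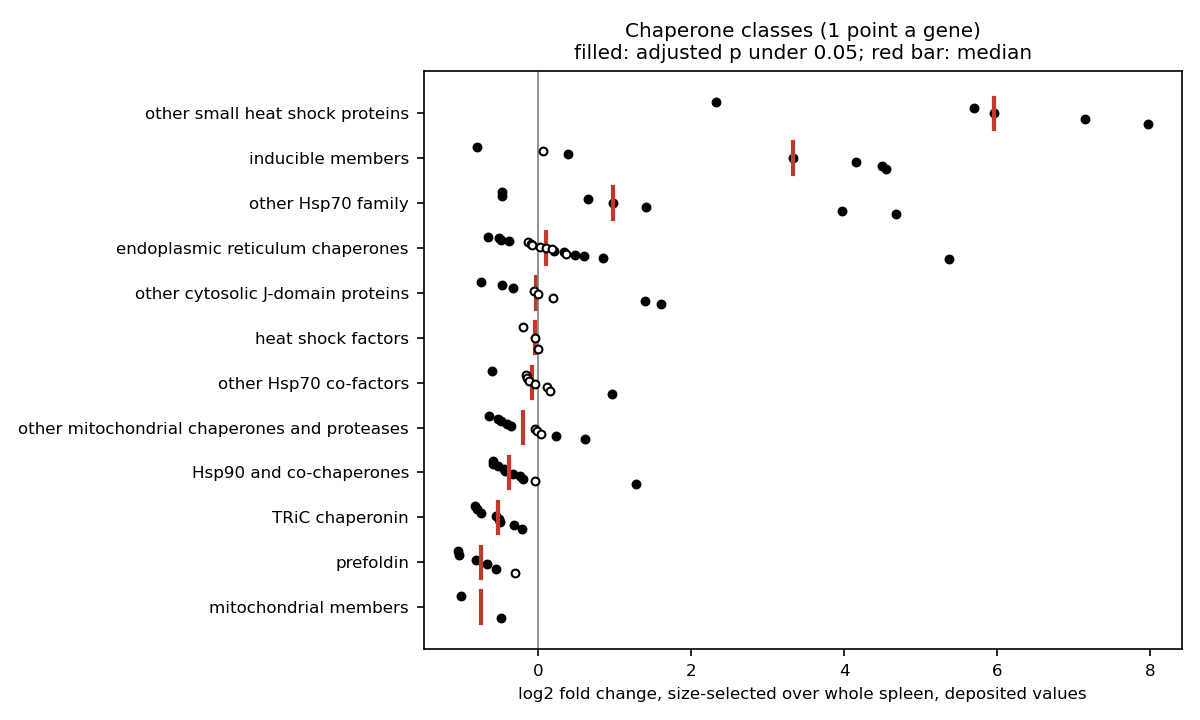
Log2 fold changes of the tested genes in each chaperone class, size-selected over whole spleen, deposited values. The points are genes (filled where the adjusted p is under 0.05) and red bars are class medians. Small heat shock proteins and the inducible genes have medians of 5.95 and 3.34, TRiC and prefoldin have medians of -0.53 and -0.74, Hspd1 and Hspe1 (mitochondrial members) lie at -0.48 and -1.01, and the 10 other mitochondrial genes have a median of -0.19. Cryab, Hspb2, Hspb7 and Hspb8 passed the count filter only through the size-selected samples, so the median of 5.95 is partly set by the filter. The heat shock factors are shown with Hsbp1.

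Immediate early genes, which are transcribed within minutes of many stimuli, were looked at beside the inducible chaperones. Of 16 tested, 10 rose and 2 fell (11 and 1 in restored counts), against 37.5% and 30.4% of all genes, with a median log2 fold change of 1.35. Their summed level was 6579 to 11858 CPM in the size-selected samples and 4578 to 6449 in whole spleen, without overlap. Taken singly, 34.9% of all genes did not overlap between the groups. Fos rose by 3.41 ± 0.21 (SE, adjusted p = 2.5e-10), Btg2 fell by 0.70 (SE 0.15, adjusted p = 0.00031), and Junb had a difference of -0.15 (SE 0.13, adjusted p = 0.30), or 0.25 in restored counts (adjusted p = 0.081). The part of these genes in the chaperone differences was not tested.

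The difference between the groups was also compared between the sexes, with 4 numbers each. By an interaction term in edgeR, none of the 10 genes passed the test and 1 of them, Hspa1b, had an unadjusted p under 0.05. Across all 15760 genes tested 0% were called, with 744 at an unadjusted p under 0.05, and DESeq2 called 3 genes, none of them among the 10. For Hspa1b the log2 difference between the samples of 1 number was 3.38 to 3.87 in males and 4.67 to 5.07 in females, with no overlap. The share of all genes whose pair differences separate the sexes in this way is not given here, so the separation by itself cannot be judged. The female rise exceeded the male rise by 1.24 ± 0.48 (log2 scale, SE, unadjusted p = 0.021). With the number as a block the excess was 1.31 ± 0.17 (SE, adjusted p = 0.039), and 1.30 in restored counts (adjusted p = 0.038), in a fit that called 0.019% of genes. That call was lost when number 407, 408, 435, 436, 445, 447 or 460 was left out (adjusted p from 0.13 to 0.28), although the excess stayed at 1.24 to 1.37 (unadjusted p from 2.9e-05 to 5.3e-05), and held without number 427 (adjusted p = 0.025). Hspa1a had pair differences of 3.16 to 4.41 in males and 4.89 to 5.80 in females, and its excess of 1.37 with the block did not pass the test (adjusted p = 0.47).

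**Figure D5:**
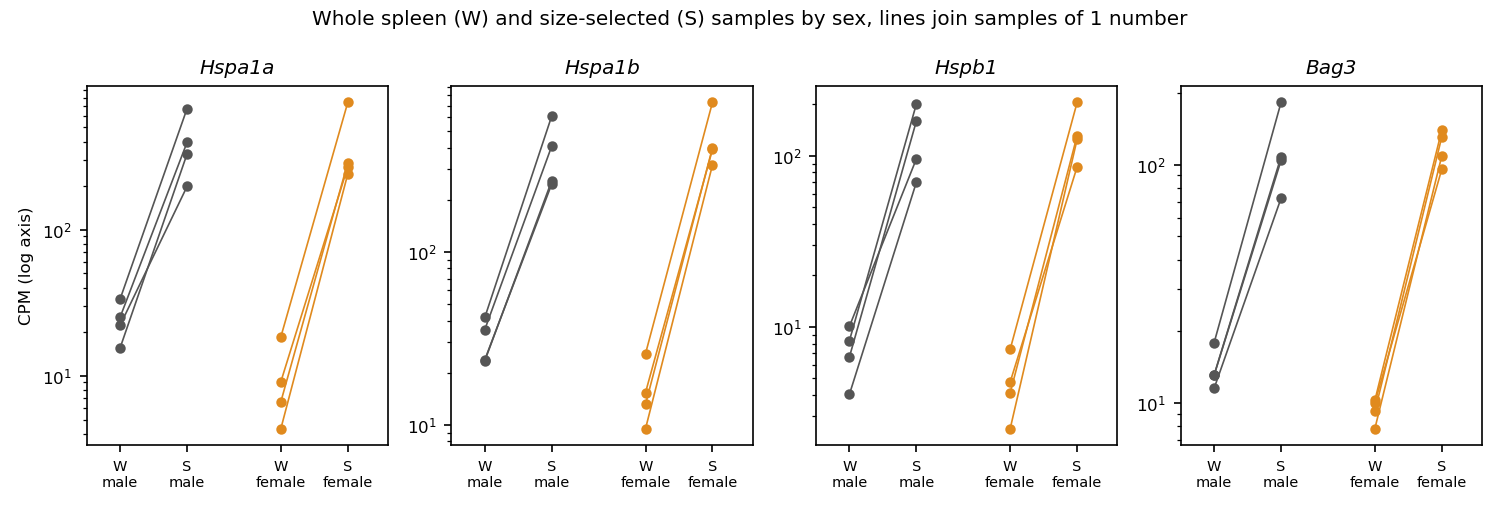
CPM of Hspa1a, Hspa1b, Hspb1 and Bag3 on log axes in whole spleen (W) and size-selected samples (S), with males in grey, females in orange and lines joining samples of 1 number. For Hspa1a and Hspa1b, 3 of the 4 female whole spleen samples lie below every male one, and the size-selected samples of the sexes overlap.

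Within whole spleen, the inducible Hsp70 genes had lower means in females, with ranges that overlapped those of males. Hspa1a averaged 9.61 ± 6.18 CPM in females and 24.0 ± 7.46 in males (SD, n = 4 each), and Hspa1b 15.9 ± 6.98 and 31.1 ± 9.04 CPM. In edgeR neither passed the test, with differences of -1.33 (SE 0.37, adjusted p = 0.13) and -0.97 (SE 0.28, adjusted p = 0.15), while 0.194% of 13383 genes did. DESeq2 called both (adjusted p = 0.0100 and 0.023), and 3.67% of all genes. Bag3 had 7.83 to 10.3 CPM in female and 11.6 to 17.95 CPM in male whole spleen, a difference of -0.58 (SE 0.19, adjusted p = 0.18). Within the size-selected samples Hspa1b averaged 459 ± 184 CPM in females and 380 ± 169 in males, and Hspa1a 385 ± 239 and 399 ± 201 CPM (SD, n = 4 each). There, none of the 10 genes passed the test or had an unadjusted p under 0.05 in edgeR or DESeq2, and edgeR called 0.0397% of 15127 genes.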

How the data were processed

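RNA-seq of 16 mouse spleen samples was used, all 16 columns of per-sample values. Values per sample are the estimated counts per gene that the authors deposited. Trim Galore, STAR, RSEM and DESeq, and the build mm10, are named per the submitters' processing notes, without versions. In the authors' deposited table, the log2 fold change with its SE and adjusted p-value, and mean TPM and FPKM values per group are given, per the file headers. Its base mean, a signal over all samples, and its test score are the authors', per the file headers, and were not used. Estimated counts were rounded and tested with edgeR 4.0.16 (R 4.3.3), using filterByExpr (minimum count 10), TMM and the quasi-likelihood F test, with Benjamini-Hochberg adjustment over all genes and a threshold of 0.05. CPM uses TMM-scaled totals. The SE is the log2 fold change over the square root of F. Alternatives were RLE scaling, no filter, DESeq2 1.42.0, restored counts, the number as a replicate block, single sexes and leaving out each number. Same-numbered samples deviated together (mean correlation 0.21, from 0.12 to 0.38 in 8 pairs, -0.03 between different numbers), and the number comes from the labels. The fits were tested on simulated data. The genes and lists were chosen with earlier results of these data known. Named genes of a list are those with its largest rise and fall among called genes of a mean log2 CPM of at least 3, its highest mean CPM, and Hsf1, Hsf2, Hsp90ab1, Hspa5, Hspa9 and Cryab; genes named as the members of a small count were chosen after their values were seen. Gene coordinates and transcripts are from GENCODE M21 (GRCm38), which holds 54809 of the 54838 identifiers.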

Additional observations from a re-analysis of the deposited data

Results flagged for a closer look

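The rise of Hspa1b in the size-selected samples differed between the sexes when the number was a block. The female rise exceeded the male rise by 1.31 on the log2 scale (SE 0.17, adjusted p = 0.039). Females had larger pair differences in 4 of 4 numbers than any male number, without a share of all genes to set beside it. The call was lost when any number but 427 was left out, with the excess then at 1.24 to 1.37 (SE 0.17 to 0.20). In a screen for single samples far from the rest, none of 20 gene and group combinations stood out, where chance gives about 1.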

How the results depend on the processing

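Between the groups, 8 of the 10 genes were called (5 higher, 3 lower) with each number left out, with the number as a replicate block, with RLE scaling, no filter, DESeq2 and female numbers alone. With male numbers alone 7 were called, and in restored counts 9, with or without the block. The block changed no call among the 10 genes other than that of Hspa1b in the interaction. Among the other chaperone lists 58 genes were called, 53 to 59 with a number left out (20 to 22 higher, 32 to 37 lower), 59 with the block and 40 with male numbers alone. In restored counts with the block, Junb turned to a rise of 0.24 (adjusted p = 0.030). The interaction with sex called 1 of the 10 genes, as higher, with the block, in restored counts with the block, and with the block without number 427, and 0 with a number left out and no block. Leaving numbers out under the block was chosen after seeing the data. Between the sexes in whole spleen, 2 of the 10 genes were called, both as lower in females, by DESeq2 and with no filter, and 0 to 2 with a number left out. There, without number 436, Hspa1a differed by -1.85 (adjusted p = 0.033) and Hspa1b by -1.30 (adjusted p = 0.045). The cause of these changes was not tested. At these totals Hspb2, Hspb7 and Hspb8 had at most 7 estimated counts in a whole spleen sample, which limits the precision of their fold changes.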
